A study of Cucurbita pepo with 18 samples.

Results

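*FLA11*, *FLA12*, and *COBL4* are genes for glycoproteins of the plant cell wall, and their expression was followed in the seed coats of a hull-less and a hulled pumpkin (*Cucurbita pepo*). They were chosen by identifier, as the *C. pepo* orthologs that the study assigned to these *Arabidopsis* genes: Cp4.1LG10g04690 (*FLA11*), Cp4.1LG02g12840 (*FLA12*), and Cp4.1LG04g14420 (*COBL4*). They are 3 of the 29484 features in the expression table. Fasciclin-like arabinogalactan proteins (FLAs) are heavily glycosylated proteins of the cell surface that carry fasciclin domains, known from adhesion proteins, and many are held at the plasma membrane by a lipid anchor. In *Arabidopsis* stems, *FLA11* and *FLA12* are known for their expression in cells that lay down a secondary cell wall (SCW), and mutants have weaker stems with less cellulose. COBRA-like proteins carry the same kind of anchor, and *COBL4* is known in *Arabidopsis* as *IRX6*, one of the genes whose mutants have collapsed xylem vessels with little cellulose in the SCW.

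The seed coats came from 2 *C. pepo* accessions raised in a greenhouse, the parents of a mapping population. HL is hull-less, with a thin seed coat, and carries an insertion in an exon of the NAC transcription factor gene *CpNST1* that brings an early stop codon. H is hulled, with a lignified seed coat, and has no such insertion. Seed coats of HL and H were taken at 5, 10, and 20 days after pollination (DAP), and total RNA was sequenced in 3 biological replicates per accession and stage, which gives 18 libraries in 6 groups. The accessions are not a pair that differs in *CpNST1* alone, so the mutation and the rest of the genetic background cannot be told apart. Nothing says whether replicates came from separate plants, so *p*-values measure the spread between these libraries.

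The libraries held 13827773 to 18443048 counts each. Up to 3 counts of a gene in a library were taken as the floor of detection, equal to 0.137 to 0.226 CPM (counts scaled to the library size), and this floor covers counting error only. The H libraries at 10 DAP were the least alike, where pairs of libraries had a Pearson's *r* across genes, on log2 CPM, of 0.888, 0.923, and 0.968, against 0.954 to 0.987 within the other groups. *CpNST1* was expressed at 20 DAP in both accessions, at 133, 149, and 180 FPKM in HL and 40.6, 26.6, and 30.5 FPKM in H, and a count table does not show the insertion. FPKM values are scaled to the length of each transcript, so that genes of different length can be compared. They are also scaled to a normalized size of each library, which is not its total count.

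*FLA11* lies on LG10 from 1202501 to 1203235 on the minus strand of the zucchini assembly to which the Cp4.1 identifiers belong. Its model is 735 bases long, the whole span, so that it holds no intron. *FLA12* lies on LG02 from 11508798 to 11509801 on the plus strand, with a model of 918 bases, and neither gene overlaps another feature. *COBL4* lies on LG04 from 11568796 to 11572373 on the plus strand, with a model of 2701 bases. Of its span, 2014 bases overlap Cp4.1LG04g14470, a gene described as COBRA on the minus strand, and whether the counts were made by strand is not given in the sources used here.

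At 20 DAP, the latest stage sampled, all 3 genes were near or at the floor in HL and high in H. *FLA11* had 1.04, 1.25, and 0.714 FPKM in HL, from 13, 16, and 8 counts, against 99.3, 75.7, and 84.6 FPKM in H, from 1142, 785, and 964 counts. *FLA12* had 0 counts in each HL library, against 107, 106, and 97.9 FPKM in H, from 1539, 1371, and 1393 counts. *COBL4* had 0.217, 0.128, and 0.0728 FPKM in HL, from 10, 6, and 3 counts, against 25.4, 19.5, and 22.9 FPKM in H, from 1073, 743, and 960 counts. In every case the lowest H library stood far above the highest HL library, and the H libraries differed among themselves by at most 1.32-fold.

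In edgeR's quasi-likelihood test over all genes of that stage, the log2 fold change of HL over H was −6.40 (SE 0.22, adjusted *p* = 8.48e-06) for *FLA11* and −7.28 (SE 0.28, adjusted *p* = 1.41e-05) for *COBL4*. *FLA12* was at least 518-fold lower in HL, taking 3 counts per library for its counts of 0 (edgeR adjusted *p* = 1.53e-05). A gene was called changed where the adjusted *p* was 0.05 or less and the log2 fold change was 1 or more in size. All 3 genes were thus called lower, as were 12.7% of the 21973 genes tested. Of those genes, 203 had a lower fitted log2 fold change than *FLA11* and 151 a lower one than *COBL4*. The 3 calls held under each of the 14 alternatives run for each gene, including each library left out in turn. Seed coats were sequenced whole, so fewer cells of a type and less RNA per cell cannot be told apart.

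**Figure D1:**
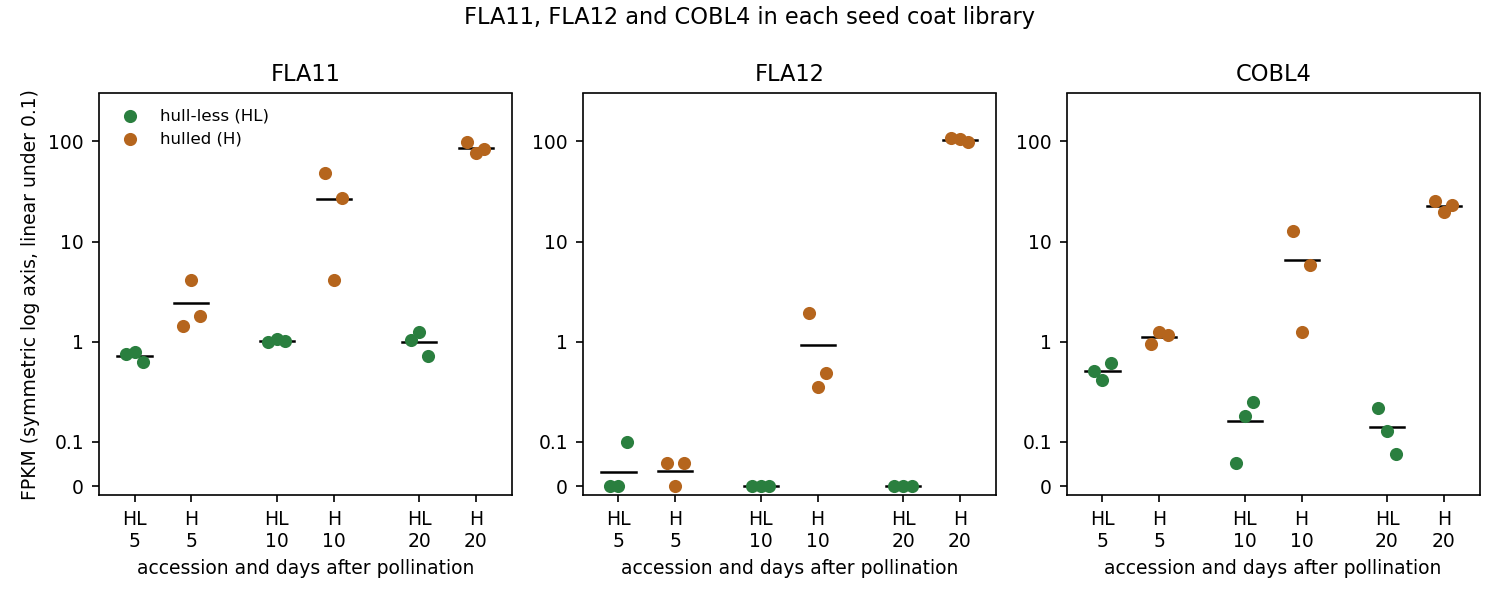
FPKM of *FLA11*, *FLA12*, and *COBL4* (y axis, logarithmic above 0.1 and linear under it) in each library, by accession and days after pollination (x axis), with a line at the mean of each group of 3. At 20 DAP the H libraries sit between 75.7 and 99.3 FPKM for *FLA11*, between 97.9 and 107 for *FLA12*, and between 19.5 and 25.4 for *COBL4*, above all HL libraries of each gene.

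At 10 DAP the difference was already present for *FLA11* and *COBL4*, but the H libraries were far apart. *FLA11* had 0.987, 1.06, and 1.02 FPKM in HL, from 10, 11, and 10 counts, against 48.5, 4.09, and 27.2 FPKM in H, from 683, 46, and 311 counts. *COBL4* had 0.0537, 0.183, and 0.249 FPKM in HL, from 2, 7, and 9 counts, against 12.8, 1.26, and 5.79 FPKM in H, from 662, 52, and 243 counts. H replicate 1 was the highest and H replicate 2 the lowest for both genes, and even the lowest stood above all HL libraries. The log2 fold change of HL over H was −4.69 (SE 0.93, edgeR adjusted *p* = 0.0238) for *FLA11* and −5.33 (SE 1.02, edgeR adjusted *p* = 0.0215) for *COBL4*. Both tested genes were called lower, as were 5.56% of the 21104 genes tested. The calls of both were lost without any 1 of the HL libraries or without H replicate 3, with adjusted *p* of 0.0737 to 0.1 for *FLA11* and 0.0657 to 0.0928 for *COBL4*, while the log2 fold changes without 1 library stayed between −5.22 and −3.94 and between −5.84 and −4.43.

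*FLA12* was still scarce at 10 DAP, with 0 counts in each HL library and 34, 5, and 7 counts in H (1.93, 0.356, and 0.491 FPKM). The accessions did not overlap, and HL was at least 3.96-fold lower against the floor, or at least 1.80-fold lower without H replicate 1. The gene did not pass the expression filter at this stage and has no test there. With all 18 libraries in one fit it was tested and called lower (edgeR adjusted *p* = 0.00396, with a fitted log2 fold change of −6.98 that is no bound, since HL is at 0), whereas without a filter its adjusted *p* at 10 DAP was 0.0666.

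At 5 DAP the differences were small. *FLA11* had 0.762, 0.790, and 0.623 FPKM in HL, from 11, 12, and 10 counts, against 1.44, 4.099, and 1.81 FPKM in H, from 22, 65, and 28 counts. *COBL4* had 0.509, 0.412, and 0.611 FPKM in HL, from 27, 23, and 36 counts, against 0.946, 1.24, and 1.16 FPKM in H, from 53, 72, and 66 counts. Neither gene overlapped between the accessions. With 3 libraries per group, genes that were not called could also lack overlap. One was the FLA gene Cp4.1LG04g03710, at a log2 fold change of −0.22 (edgeR adjusted *p* = 0.173). Lack of overlap alone thus sets no gene apart at any stage, and its share over all genes is not given here. *FLA12* had 0, 0, and 2 counts in HL and 1, 0, and 1 in H, under the floor in every library, so no difference was detectable at this depth. The log2 fold change of HL over H was −1.75 (SE 0.46, edgeR adjusted *p* = 0.0296) for *FLA11* and −1.12 (SE 0.23, edgeR adjusted *p* = 0.0121) for *COBL4*. Both were called lower at a stage where 6.43% of the 22597 genes tested were. The call of *FLA11* was lost without any 1 of the HL libraries (adjusted *p* of 0.0806 to 0.0891), and without H replicate 2 its log2 fold change was −1.14. The call of *COBL4* was lost without HL replicate 2 (log2 fold change −0.98, adjusted *p* = 0.0501), and both calls were lost with all 18 libraries in one fit.

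Within H, the 3 genes did not follow the same course. The mean FPKM of *FLA11* was 2.45 ± 1.44 at 5 DAP, 26.6 ± 22.2 at 10 DAP, and 86.5 ± 11.9 at 20 DAP (SD, n = 3 each). That of *COBL4* was 1.12 ± 0.15, 6.61 ± 5.80, and 22.6 ± 2.95 at the same stages. That of *FLA12* was 0.0348 ± 0.0301, 0.926 ± 0.873, and 104 ± 5.01. At 10 DAP *FLA11* thus had 31.5% of its mean CPM at 20 DAP (4.83% to 57.5% in single libraries) and *COBL4* 30.0% (5.69% to 58.0%), against 0.916% (0.351% to 1.91%) for *FLA12*.

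*FLA11* rose by 3.50 on the log2 scale (SE 0.94, edgeR adjusted *p* = 0.028) between 5 and 10 DAP in H, and *COBL4* by 2.64 (SE 0.78, adjusted *p* = 0.0373), in a comparison where 13.0% of genes were called higher. H replicate 2 at 10 DAP was barely above the 5 DAP libraries, at 3.07 CPM of *FLA11*, where the highest 5 DAP library had 3.03 CPM. Most libraries decided these calls. That of *FLA11* was lost without any 1 of the 5 DAP libraries or without 10 DAP replicate 3 (adjusted *p* of 0.0596 to 0.101). That of *COBL4* was lost without any 1 of the 5 DAP libraries or without 10 DAP replicate 1 or 3 (adjusted *p* of 0.06 to 0.114), with a log2 change of 1.67 without replicate 1. *FLA12* was at least 6.15-fold higher at 10 than at 5 DAP against the floor, or at least 2.80-fold higher without 10 DAP replicate 1. It has no test in the libraries of these stages alone. With all 18 libraries in one fit it was tested and called higher (edgeR adjusted *p* = 0.00182). The fitted log2 change of 4.56 is no bound, since the 5 DAP libraries are under the floor.

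Between 10 and 20 DAP in H, *FLA12* rose by 6.71 on the log2 scale (SE 0.63, edgeR adjusted *p* = 0.00146), and it alone of the 3 was called, where 14.2% of genes were called higher. This call held under all 11 alternatives run for it. The change of *FLA11* was 1.66 (SE 0.76, adjusted *p* = 0.124) and that of *COBL4* 1.73 (SE 0.73, adjusted *p* = 0.101), although the libraries of both stages did not overlap for either. Without 10 DAP replicate 1 both were called (2.44, adjusted *p* = 0.0197, and 2.65, adjusted *p* = 0.00716), and without replicate 2 *FLA11* was called (1.15, adjusted *p* = 0.0403).

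The ratio of *FLA12* to *FLA11* within a library puts these courses side by side without the spread that both genes share. In FPKM it was 0.0399, 0.0870, and 0.0180 in H at 10 DAP and 1.08, 1.40, and 1.16 at 20 DAP. The ratios of the 2 stages did not overlap (exact permutation test, two-sided *p* = 0.1, the smallest that 3 against 3 libraries allow). The ratio of *COBL4* to *FLA11* was 0.264, 0.308, and 0.213 at 10 DAP and 0.256, 0.258, and 0.271 at 20 DAP, which overlap (exact permutation test, two-sided *p* = 0.9). The 10 DAP libraries, far apart in *FLA11*, thus differed much less in this ratio.

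**Figure D2:**
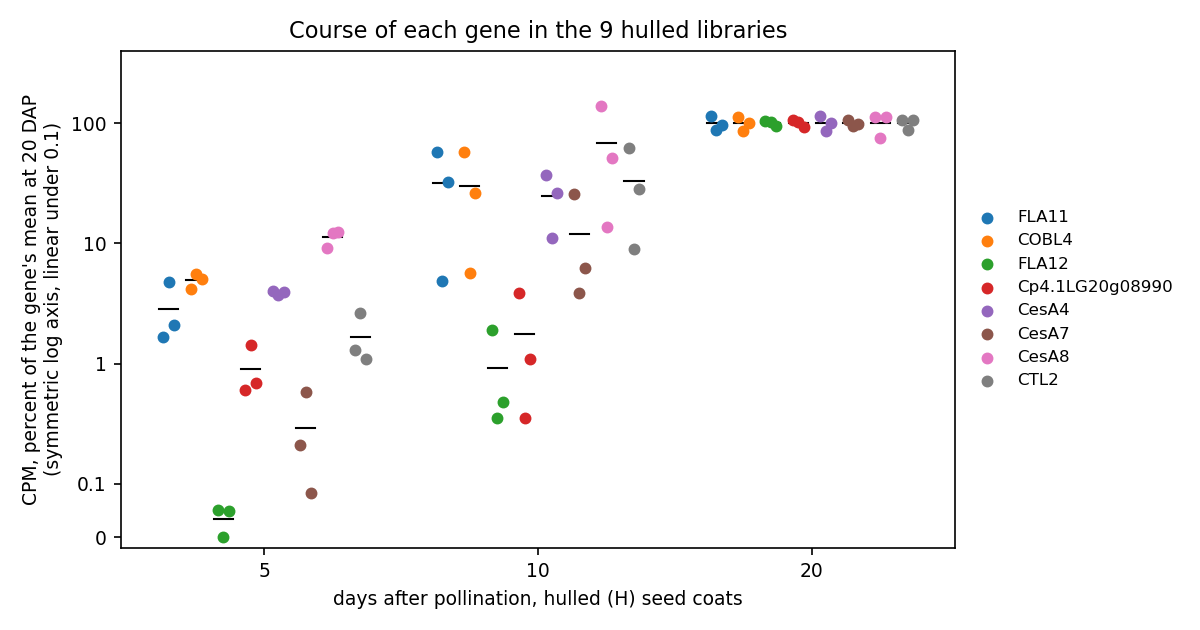
CPM of each gene as a percentage of its own mean at 20 DAP (y axis, logarithmic above 0.1 and linear under it) in the 9 H libraries, by days after pollination (x axis), with a line at each mean of 3. *FLA11* and *COBL4* stand at 31.5% and 30.0% on average at 10 DAP, and *FLA12* and the further FLA12 gene Cp4.1LG20g08990 at 0.916% and 1.77%.

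In HL the 3 genes stayed low. *FLA11* had mean values of 0.725 ± 0.089, 1.02 ± 0.035, and 1.00 ± 0.272 FPKM at 5, 10, and 20 DAP (SD, n = 3 each). Its log2 change was 0.47 (SE 0.31, edgeR adjusted *p* = 0.233) from 5 to 10 DAP and 0.01 (SE 0.38, adjusted *p* = 0.988) from 10 to 20 DAP. *COBL4* had 0.511 ± 0.099, 0.162 ± 0.099, and 0.139 ± 0.073 FPKM. It fell by 1.67 on the log2 scale from 5 to 10 DAP (SE 0.48, edgeR adjusted *p* = 0.0183), where 22.2% of genes were called lower, and was not tested from 10 to 20 DAP, where the libraries overlapped. The call was lost without 5 DAP replicate 1 or 3 (adjusted *p* = 0.0514 and 0.0636) and with all 18 libraries in one fit (adjusted *p* = 0.0788). *FLA12* was under the floor in all 9 HL libraries, with 2 counts in 1 of them.

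Ordered by mean FPKM, *FLA11* stood highest in H at 20 DAP, then in H at 10 and 5 DAP, HL at 10 DAP, HL at 20 DAP, and HL at 5 DAP. Single libraries of H at 10 and 5 DAP touched in FPKM (4.086 in the lowest 10 DAP library and 4.099 in the highest 5 DAP library), and HL at 20 DAP overlapped with HL at 10 and at 5 DAP. *COBL4* was highest in H at 20 DAP, then in H at 10 and 5 DAP, HL at 5 DAP, HL at 10 DAP, and HL at 20 DAP, and only the last 2 groups overlapped among neighbours. *FLA12* was highest in H at 20 DAP, then in H at 10 DAP, and the other 4 groups were under the floor.

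Whether the change between stages differed between the accessions was tested in one edgeR fit of all 18 libraries. From 5 to 10 DAP the log2 change of *COBL4* was lower in HL than in H by a difference of −4.24 (SE 0.93, adjusted *p* = 0.00936), and it was called, as were 3.87% of the 24259 genes tested. For *FLA11* that difference was −2.96 (SE 1.01, adjusted *p* = 0.0723), and it was called without H 5 DAP replicate 2 (−3.59, adjusted *p* = 0.0473) or H 10 DAP replicate 2 (−3.47, adjusted *p* = 0.00228). Over 5 to 20 DAP the difference was −4.64 for *FLA11* (SE 1.01, adjusted *p* = 0.00496) and −6.16 for *COBL4* (SE 0.93, adjusted *p* = 0.000369), both called where 7.85% of genes were, and both under each of the 22 alternatives. From 10 to 20 DAP, where 5.98% of genes were called lower, it was −1.68 for *FLA11* (SE 0.97, adjusted *p* = 0.263) and −1.93 for *COBL4* (SE 1.07, adjusted *p* = 0.242). *COBL4* alone of these was called there when H 10 DAP replicate 1 was left out (−2.84, adjusted *p* = 0.0364). *FLA12* has no such test, because its HL libraries were all at the floor.

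The members were set beside a list of orthologs that act in cellulose synthesis. CesA4, CesA7, and CesA8 form the cellulose synthase complex of the SCW, CTL2 is a chitinase-like protein tied to cellulose deposition, KORRIGAN is a membrane endoglucanase, and CSI1 links the complex to microtubules. At 20 DAP 4 of the 6 were called lower in HL, with log2 fold changes of −5.65 for *CesA4*, −8.25 for *CesA7*, −6.43 for *CesA8*, and −6.23 for *CTL2* (edgeR adjusted *p* of at most 0.000159). *KORRIGAN* and *CSI1* stood at 0.59 and 0.55 and were not called. The median of the list was −5.94, against −0.01 over all genes. At 10 DAP the same number was called lower, with a median of −3.79 against −0.04 over all genes. At 5 DAP 1 of 5 tested was called lower, *CesA8* at −1.13. Over all genes tested, 12.7%, 5.56%, and 6.43% were called lower at 20, 10, and 5 DAP.

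In H at 10 DAP the 4 genes called stood at 24.9% (*CesA4*, single libraries 11.1% to 37.2%), 11.9% (*CesA7*, 3.83% to 25.7%), 67.8% (*CesA8*, 13.6% to 139%), and 33.2% (*CTL2*, 8.92% to 62.7%) of their own mean CPM at 20 DAP. *KORRIGAN* and *CSI1* stood at 281% and 102%. Without 10 DAP replicate 1 the 4 genes had 18.7%, 5.01%, 32.4%, and 18.5%. *FLA11* and *COBL4*, at 31.5% and 30.0%, or 18.5% and 15.9% without that library, lay within the span of these 4, and *FLA12*, at 0.916%, or 0.417% without it, lay under it. In FPKM, *FLA11* was 0.430, 0.431, and 0.415 of *CesA4* in the H libraries at 20 DAP, and *COBL4* was 0.110, 0.111, and 0.113 of it. In HL at 20 DAP, where *CesA4* kept 4.43, 3.90, and 3.76 FPKM, *FLA11* was 0.234, 0.322, and 0.190 of *CesA4*, and *COBL4* 0.0489, 0.0328, and 0.0194. Both members thus lay further under *CesA4* in HL than in H, in all 3 libraries.

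Of 11 SCW regulators, 9 were tested at 20 DAP, 5 called lower and 1 higher in HL, where 12.7% and 8.37% of all genes tested were called lower and higher. The median was −1.63, against −0.01 over all genes. The gene called higher was *CpNST1* (log2 fold change 2.25, SE 0.20, edgeR adjusted *p* = 0.000295). The *MYB58/MYB63* ortholog, an activator of lignin genes in *Arabidopsis*, had 0 counts in each HL library, against 207, 131, and 136 counts in H, and was at least 56.8-fold lower. In H at 10 DAP it had 159, 17, and 51 counts, and *CpNST1* had 1099, 61, and 444. This is the replicate order of *FLA11* and *COBL4*, and it was shared by 9 of the 11 regulators, 1 of them at the floor, and by 5 of the 6 cellulose genes. The exceptions were *BLH6* (2547, 1760, and 1670 counts), highest in replicate 1 but not lowest in replicate 2, and the *MYB103* ortholog (235, 527, and 512 counts) and *KORRIGAN* (8739, 17589, and 17569 counts), both lowest in replicate 1.

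**Figure D3:**
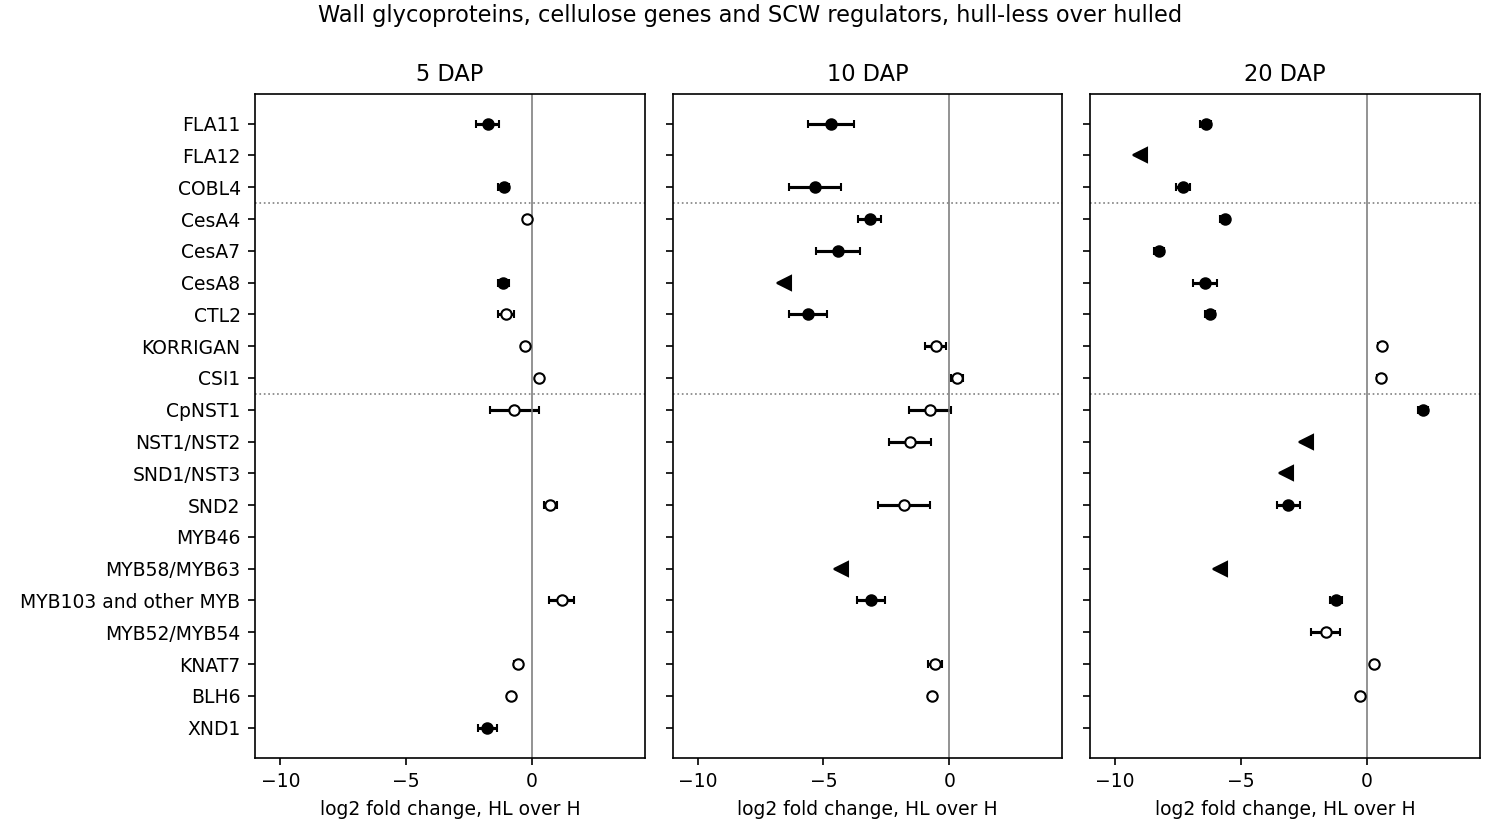
Log2 fold change of HL over H (x axis) at 5, 10, and 20 DAP for the 3 wall glycoprotein genes, 6 cellulose genes, and 11 SCW regulators (rows, from top to bottom). Filled points are called and open points are not, bars are 1 SE, triangles are lower bounds of the size of a called difference against the floor, and rows without a mark were not tested. At 20 DAP *FLA11*, *FLA12*, and *COBL4* lie with *CesA4*, *CesA7*, *CesA8*, and *CTL2* on the left, and *CpNST1* lies on the right at 2.25.

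The FLA family as a whole did not move one way. Of 40 features whose description holds the word fasciclin, 28 were tested at 20 DAP, 5 were called higher and 7 lower in HL, and the median log2 fold change was −0.18, against −0.01 over all genes. Over all genes tested at this stage, 8.37% were called higher and 12.7% lower. Without *FLA11* and *FLA12*, the family had 5 higher and 5 lower of 26. The word search also took in features named as other proteins. They were Cp4.1LG19g04090 (DnaJ protein P58IPK homolog), called lower, and Cp4.1LG13g07220 (WUSCHEL-related homeobox 5), not called. The largest rise was in Cp4.1LG15g06870, described as FLA2, which had a mean of 31.9 ± 5.35 FPKM in HL and 1.86 ± 0.34 FPKM in H (SD, n = 3 each; log2 fold change 4.103, SE 0.19, edgeR adjusted *p* = 2.98e-05). Cp4.1LG04g03710, described as FLA13 and the highest FLA gene over all 18 libraries, had 163 ± 20.3 FPKM in HL and 48.3 ± 31.2 FPKM in H (log2 fold change 1.77, adjusted *p* = 0.0221). Another abundant gene, Cp4.1LG03g00120 (FLA17), had 110 ± 7.43 FPKM in HL and 93.4 ± 2.22 FPKM in H and was not called (0.24, adjusted *p* = 0.121).

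Among the FLA genes called lower, Cp4.1LG20g08990 is also described as FLA12 and is not among the orthologs the study listed. It had 3, 0, and 1 counts in HL at 20 DAP, against 1575, 1374, and 1369 counts in H (135, 130, and 118 FPKM), and was at least 520-fold lower (edgeR adjusted *p* = 8.58e-06). By mean FPKM in H at 20 DAP it was the highest of the FLA genes, followed by *FLA12*, Cp4.1LG03g00120, and *FLA11*. Its counts in the H libraries at 20 DAP were 1.02, 1.00, and 0.983 times those of *FLA12*. In H at 10 DAP it had 69, 5, and 16 counts against 34, 5, and 7 for *FLA12*, equal in replicate 2 and about 2.03 and 2.29 times as many in replicates 1 and 3. At 5 DAP it had 12, 29, and 14 counts against 1, 0, and 1. The genes lie on different chromosomes (LG20 from 6841086 to 6843996 on the minus strand, and LG02), and how reads that match both were assigned is not given, so the split of counts between them is uncertain. The remaining features of the family called lower, among them the DnaJ protein homolog, were between −3.40 and −1.10. Cp4.1LG04g04120, described as FLA7, was the lowest of these, with a mean of 0.637 ± 0.960 FPKM in HL and 6.95 ± 0.68 FPKM in H.

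Among 14 features described as COBRA or COBRA-like, 10 were tested at 20 DAP and 3 were called lower, *COBL4* with the largest difference, where 12.7% of all genes tested were called lower. The median of the 10 was −0.08, against −0.01 over all genes. Cp4.1LG18g07210, also described as COBRA-like protein 4, had a mean of 0.235 ± 0.138 FPKM in HL and 3.02 ± 0.46 FPKM in H (log2 fold change −3.64, edgeR adjusted *p* = 0.00129). Cp4.1LG01g01700 (COBRA-like protein 6) had 0.150 ± 0.031 FPKM in HL and 1.47 ± 0.50 FPKM in H (−3.24, adjusted *p* = 0.00187). The genes of the family with the highest FPKM over all libraries, Cp4.1LG08g05160 (COBRA-like protein 7) and Cp4.1LG03g15350 (COBRA), stood at 0.88 and 0.52 and were not called. *COBL4* was the highest of the family by mean FPKM in H at 20 DAP and number 6 over all 18 libraries.

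The gene that overlaps *COBL4* on the other strand, Cp4.1LG04g14470, did not follow it. It had 5.96, 5.74, and 6.50 FPKM in HL at 20 DAP, against 3.68, 3.70, and 4.79 FPKM in H (log2 fold change 0.59, SE 0.15, edgeR adjusted *p* = 0.0192, under the fold limit). In the H libraries at 10 DAP it had 10.6, 22.7, and 21.7 FPKM, lowest in the replicate where *COBL4* was highest. In HL at 20 DAP, libraries with 286, 280, and 279 counts of this gene had 10, 6, and 3 counts of *COBL4*.

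**Figure D4:**
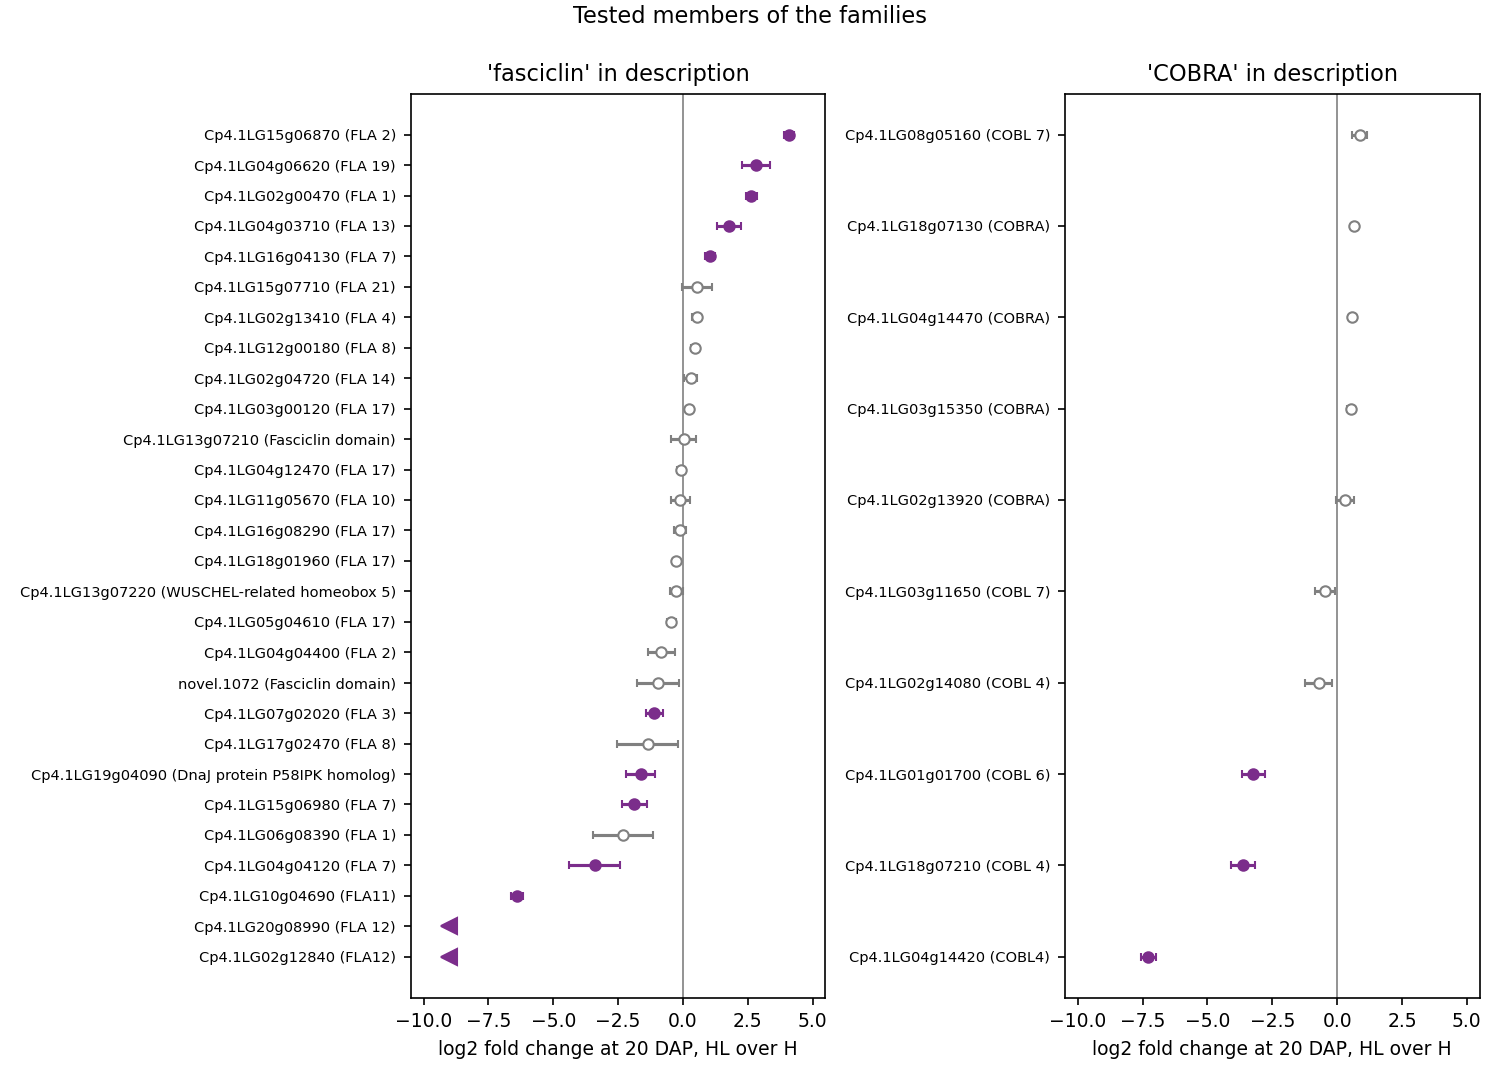
Log2 fold change of HL over H at 20 DAP (x axis) of each tested gene (rows) described as fasciclin (28 genes, left) and COBRA (10 genes, right). Filled points are called, open points are not, bars are 1 SE, and triangles are lower bounds of the size of the difference against the floor. *FLA11*, *FLA12*, and Cp4.1LG20g08990 lie at the bottom left and *COBL4* at the bottom right, while 5 FLA genes lie right of 0 as called higher.

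The genes whose log2 CPM was most like that of each member over the 18 libraries were listed by Pearson's *r* among 24258 genes, as a description. The points share accession and stage, so that any gene high in H at 20 DAP scores well. For *FLA11* they were an IRX15-LIKE gene (Cp4.1LG19g11200, 0.988), *CTL2* (0.985), a ferric reduction oxidase gene (Cp4.1LG01g10120, 0.984), Cp4.1LG17g08970, which has no description (0.983), and *IRX9* (0.983). For *COBL4* they were an unannotated locus with AMP-binding domains (0.983), *IRX10* (0.981), *CesA8* (0.976), a galacturonosyltransferase-like gene (Cp4.1LG11g01680, 0.974), and an unannotated locus with multicopper oxidase domains (0.971). IRX9, IRX10, and IRX15-LIKE act in the synthesis of xylan, the main hemicellulose of SCWs, in *Arabidopsis*.

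For *FLA12* the nearest genes were others, a WEB family gene (Cp4.1LG00g14020, 0.988), Cp4.1LG11g10860 (0.985) and Cp4.1LG05g03170 (0.980), which have no description, a gene for a trichome birefringence-like protein (Cp4.1LG10g07950, 0.979), and an unannotated locus with a glycosyltransferase domain (0.976). Like *FLA12*, Cp4.1LG05g03170 had 0 counts in HL at 20 DAP, against 200 ± 19.6 FPKM in H. Among the members, *r* over the 18 libraries was 0.945 for *FLA11* and *COBL4*, 0.905 for *FLA11* and *FLA12*, and 0.865 for *FLA12* and *COBL4*. Within the 9 H libraries *FLA11* and *COBL4* had 0.987, and within the 9 HL libraries, at low counts, −0.563.

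Other cell types in the samples were followed by summed CPM of marker lists. The 7 seed coat markers held 1870 to 2154 CPM in HL at 20 DAP and 1682 to 1876 CPM in H. Most of this came from an *AGL11* gene, with a mean of 1371 CPM in HL and 1345 CPM in H. Of the 7 markers, 3 were called higher in HL and 0 lower, where 8.37% of all genes tested were called higher. The 24 embryo and storage markers held 2899, 242, and 94.5 CPM in HL and 8830, 6870, and 1335 CPM in H at 20 DAP. Of its 23 tested genes, 4 were called lower in HL at 20 DAP, where 12.7% of all genes tested were. Within H at 20 DAP the list differed 6.61-fold between libraries where *FLA12* differed 1.10-fold and *FLA11* 1.32-fold. In H at 10 DAP it held 43.5, 117, and 85.5 CPM, lowest in replicate 1, where *FLA11* and *COBL4* were highest, and its part in that spread was not tested.

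The 5 markers of xylem tracheary elements held 110 to 134 CPM in HL at 20 DAP and 116 to 133 CPM in H. Most of this came from a metacaspase gene. Of the 4 tested, 2 were called lower in HL, where 12.7% of all genes tested were. Among the 5 markers, *XCP1* (Cp4.1LG04g04430), a protease of dying xylem cells, moved with the members. It had 0.231 ± 0.098 FPKM in HL and 35.4 ± 7.46 FPKM in H. A VND7-like gene (Cp4.1LG00g05400) was also lower in HL at 20 DAP, with 0 counts in each HL library and 12, 19, and 11 counts in H. This gene was at least 5.12-fold lower in HL (edgeR adjusted *p* = 0.00589). Its course in H differed from that of the members, with 0 counts in every H library at 10 DAP. The metacaspase gene instead had a higher mean in HL, at 48.7 ± 5.03 FPKM against 31.9 ± 0.653 FPKM in H, and was not called. *XCP2* (Cp4.1LG02g08570) had 0.20 ± 0.13 FPKM in HL and 0.61 ± 0.22 FPKM in H. Unlike the members, its mean in H was higher at 5 DAP, at 1.12 FPKM. The listed *VND7* ortholog, the master regulator of vessel identity in *Arabidopsis*, had 0 counts in every H library at 20 DAP. The 102 photosystem and chlorophyll-binding genes, which mark the green chlorenchyma layer, held 12190 to 13700 CPM in HL at 20 DAP and 4904 to 5601 CPM in H. Of 81 tested, 47 were called higher and 6 lower in HL, where 8.37% and 12.7% of all genes tested were called higher and lower. The part of these shifts in the members' values was not tested.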

How the data were processed

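RNA of HL and H seed coats was sequenced on an Illumina HiSeq instrument. The authors removed low-quality reads, mapped the rest to the zucchini genome, and deposited 1 table with the raw count of each feature, which is not normalized, and FPKM values. The paper names Cufflinks for the FPKM values. The counting tool is not given in the sources used here. The table's own fold changes, *p*-values, and group means, which hold the authors' comparisons, were not used. Counts were filtered with filterByExpr (minimum count 10), scaled by TMM, and fitted with edgeR's quasi-likelihood test, each comparison in its own 6 libraries, with Benjamini-Hochberg adjustment over all genes tested. The SE is the absolute log2 fold change over the square root of F. CPM is scaled by TMM over 18 libraries, and likeness used a prior count of 2. The scripts were tested on simulated data. Fits used edgeR 4.0.16 in R 4.3.3, and alternatives used DESeq2 1.42.0 and limma 3.58.1.

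Named are the 3 genes, the listed orthologs, the 5 FLA and 5 COBRA genes with the highest mean FPKM, up to 5 of each family called at 20 DAP by size of the change, and the 5 genes most like each member. Features that the word fasciclin took in but that are named as other proteins are given too. Members and lists were chosen with earlier results of these data known. Each of these choices was changed in turn: the scaling (upper-quartile or RLE), the tool (DESeq2, or limma on log2(FPKM + 0.1) and log2(FPKM + 1)), the filter (none, or 10 counts in each library), the libraries fitted (all 18 together, or 1 left out), and a block for the replicate number. The bounds and percentages without a H library at 10 DAP were added after seeing the data.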

Additional observations from a re-analysis of the deposited data

Results flagged for a closer look

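The change between stages differed between the accessions in 3 results, each by the interaction term of the edgeR fit of all 18 libraries. From 5 to 10 DAP, 3.87% of all genes tested were called lower by this term. For *COBL4* the log2 change between these stages was lower in HL than in H by a difference of −4.24 (adjusted *p* = 0.00936). Over 5 to 20 DAP, 7.85% of all genes tested were called lower. The difference over those stages was −4.64 for *FLA11* (adjusted *p* = 0.00496) and −6.16 for *COBL4* (adjusted *p* = 0.000369). In each case all 3 H libraries of the later stage stood above all 3 of the earlier one, while in HL the later *COBL4* libraries stood under those of 5 DAP and the *FLA11* libraries of 5 and 20 DAP overlapped. HL at 20 against 5 DAP was not tested on its own. The difference was not called for *FLA11* from 5 to 10 DAP, or for either gene from 10 to 20 DAP.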

How the results depend on the processing

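At 20 DAP the 3 calls held under all alternatives, with log2 fold changes of −6.59 to −5.45 for *FLA11* and −7.74 to −4.37 for *COBL4*. At 5 DAP the call of *FLA11* was lost with all 18 libraries in one fit (−1.75, adjusted *p* = 0.118) and under limma on log2(FPKM + 1) (−0.92, under the fold limit), and that of *COBL4* in the 18-library fit (−1.12, adjusted *p* = 0.247). At 10 DAP the call of *COBL4* was lost under limma on log2(FPKM + 1) (−2.36), and *FLA12* was tested and called with all 18 libraries (−6.98). The cause was not tested. Between stages, the calls of *FLA11* and *COBL4* in H from 5 to 10 DAP were lost in 5 and 7 of 11 alternatives, and from 10 to 20 DAP both were called in 3 of 11. Without 1 library, the 5 DAP values were −2.01 to −1.14 for *FLA11* and −1.26 to −0.98 for *COBL4*, and the 10 DAP values −5.22 to −3.94 and −5.84 to −4.43. The change of *FLA11* from 10 to 20 DAP in HL, near 0, turned negative under RLE scaling (−0.0267), DESeq2 (−0.0271), and all 18 libraries (−0.0173), and was −0.17 to 0.19 without 1 library.

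With the replicate number as a block, *FLA11* (−4.20, edgeR adjusted *p* = 0.0794) and *COBL4* (−4.87, adjusted *p* = 0.0825) lost their calls at 10 DAP. In H from 5 to 10 DAP the block gave 3.23 and 2.17 (adjusted *p* = 0.15 and 0.148), and for *FLA11* in HL from 10 to 20 DAP −0.0166. The genes called at 10 DAP were 308 higher and 283 lower with the block. Nothing in the labels says that a number pairs libraries, and same-numbered libraries had correlations of −0.446 to 0.248 in their deviations from the group means.

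The number of genes called also moved. At 5 DAP, limma on log2(FPKM + 1) called 778 higher and 945 lower, and 10 counts in every library left 925 lower, against 1249 and 1453. At 10 DAP, 18 libraries in one fit called 1792 higher and 2458 lower, and 10 counts in every library left 699 lower, against 1144 and 1174. Without 1 library they were 444 to 1709 higher and 405 to 1635 lower. At 20 DAP, 10 counts in every library left 1784 lower, against 2789. A limit of 10 counts removes genes at the floor in HL. Depth limits *FLA12* at 5 DAP and in HL, and all HL levels of *COBL4* after 5 DAP, which rest on 2 to 10 counts per library.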
